A study of Oryza sativa with 11 samples.

Results

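The ostie1-1 mutant of rice was compared with wild type (WT) in anthers of stage 10, with 3 libraries in each group out of 11 in the series. All loci were used. FPKM of the transcript models of a locus were summed, which gave 55986 loci from 66338 models. All plants were grown in the field and left untreated, and RNA was sequenced from whole picked anthers. The remaining libraries were anthers of stage 12 from the same genotypes (3 WT and 2 ostie1-1), and they entered the fits through the filter on low values and the shared estimate of the spread. Fold changes of stage 12 itself are given at the end. FPKM counts fragments per kilobase of transcript and per amount sequenced. Values of a gene are given in the order of replicates 1, 2 and 3 of a group, and log2 changes (ostie1-1 minus WT) with ± their standard error (SE) and the adjusted p of the named fit. The labels call the libraries of a group biological replicates. They do not state the nature of the ostie1-1 allele, the number of lines or how many plants made up a library, and the p-values rest on the spread between these libraries. Which locus ID belongs to OsTIE1 is not given in the sources used here, and its own level was not analysed here. Gene names were put to locus IDs from general knowledge, and a name marked † was not found in RefSeq at the place the ID gives.

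OsTIE1 shares its name with TIE1 of Arabidopsis, a transcriptional repressor that binds TCP transcription factors and recruits TOPLESS corepressors. In the rice anther, microspores at stage 10 are vacuolated, the tapetum that feeds them is breaking down, and pollen has yet to fill with starch. Later opening of the anther depends on jasmonate (JA), auxin and gibberellin, on water movement, and on thickened walls in the endothecium and breakdown of the septum.

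WT replicate 3 did not resemble the other WT libraries of stage 10. Log2 levels of WT replicates 1 and 2 correlated at r = 0.983 across the genes tested. WT replicate 3 correlated with them at 0.794 and 0.795, and with the ostie1-1 libraries at 0.881 to 0.903. Genes are not independent replicates, so these values are descriptions. The ostie1-1 libraries correlated among themselves at 0.910 to 0.975, with replicate 1 the one farther from the other two. List counts and fold changes of stage 10 are therefore given both with all libraries and without WT replicate 3, a fit that leaves 2 WT libraries at stage 10. Among the 3964 genes called higher in ostie1-1 in the second fit, WT replicate 3 lay nearer to the ostie1-1 mean than to the mean of the other WT libraries in 3210 (81.0%). Among the 3154 called lower it did so in 2800 (88.8%). It stood apart in another way for green-tissue genes, described with the marker lists below. Whether it belongs with its label was not tested.

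**Figure D1:**
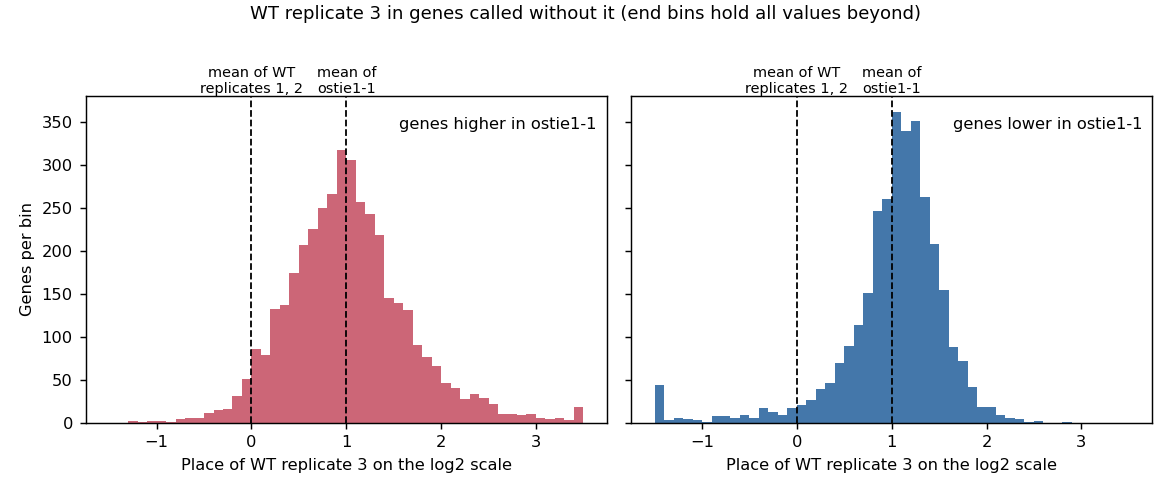
The place of WT replicate 3 in each gene called without it, on a scale where 0 is the mean log2 level of WT replicates 1 and 2 and 1 is the ostie1-1 mean. Bars count genes per bin of that scale, and the end bins hold all values beyond. The median place was 0.988 for the genes higher in ostie1-1 (left) and 1.10 for the genes lower (right).

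With all libraries, 618 of 21279 genes tested were called (2.9%), of which 500 rose in ostie1-1 (2.35% of genes tested) and 118 fell (0.555%), at an adjusted p below 0.05 from limma. The median log2 fold change was 2.05 among the genes that rose and -1.77 among those that fell. All 618 called genes had groups that did not overlap. Overlap is judged throughout on FPKM before the scaling used in the fits. The scaling factor was 0.726 for WT replicate 3 and 0.780 to 1.005 for ostie1-1, so a narrow gap above WT replicate 3 may close after scaling. For example, dividing by these factors puts WT replicate 3 above the lowest ostie1-1 library in GA20ox1, AOC, PCF5, OSHB1 and CSA, described below. By comparison, groups did not overlap in 11.4% of all genes tested with ostie1-1 higher and in 6.67% with ostie1-1 lower. The second fit called 7118 of 21103 genes (33.7%), 3964 higher (18.8%) and 3154 lower (14.9%), and the 618 genes were all among them with the same sign. Counts of every list in that fit are to be read beside these shares. The share of calls that were higher was 80.9% with all libraries and 55.7% without WT replicate 3. That second share was 35.5% with FPKM as deposited, 31.0% with TPM and 44.9% with quantile normalization. These scalings moved the median change over all genes from 0.04 to -0.26, -0.35 and -0.11, so a small fold change in that fit has no certain sign. With all libraries the median was -0.01, and -0.13, -0.19 and -0.08 under the same scalings.

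**Figure D2:**
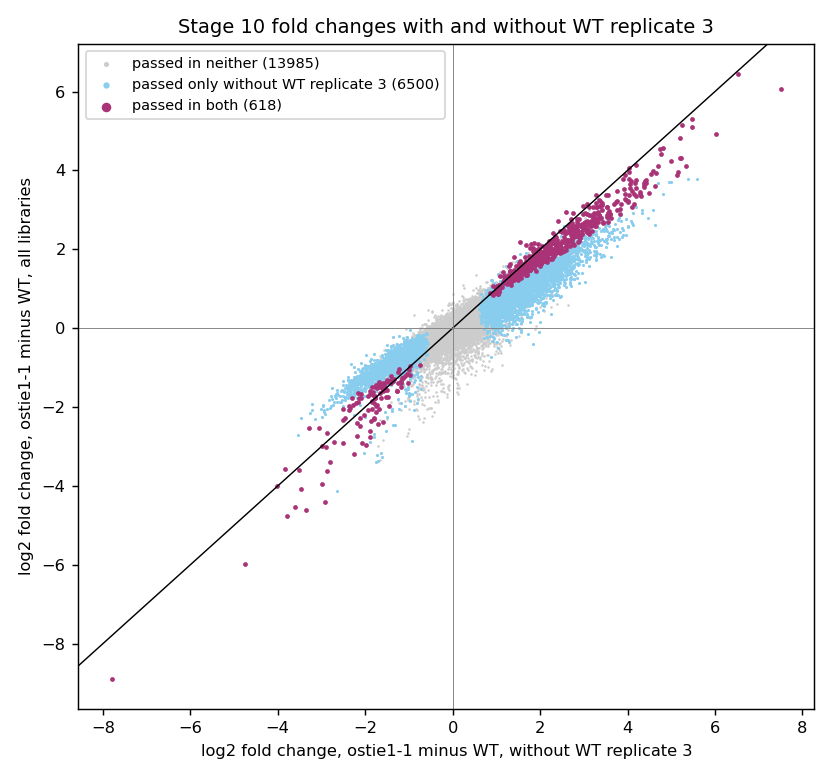
Log2 fold change of each gene tested in both fits, ostie1-1 minus WT, with all libraries (vertical) against the value without WT replicate 3 (horizontal). Each point is a gene, and the line marks equal values. The 618 genes called in both fits lie on the same side of 0 in each, and most genes called only without WT replicate 3 lie closer to 0 on the vertical axis than on the horizontal.

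Of the genes that rose with all libraries, 265 had a log2 fold change of at least 2 and 17 of at least 4. Of those that fell, 44 reached -2 and 8 reached -4. The largest fall in both fits was at LOC_Os10g05750, with 484, 577 and 3271 FPKM in WT and 2.28, 0.596 and 0.336 FPKM in ostie1-1. Its log2 change was -8.88 ± 0.82 with all libraries (adjusted p = 0.000515) and -7.79 ± 0.54 without WT replicate 3 (adjusted p = 0.000130). The next in both fits was at LOC_Os10g05980, also on chromosome 10, with 69.5, 67.7 and 586 FPKM in WT and 1.73, 0.738 and 0.916 FPKM in ostie1-1 (log2 change -5.99 ± 0.87 with all libraries, adjusted p = 0.00570; -4.75 ± 0.47 without WT replicate 3, adjusted p = 0.000259). Both genes were at their highest in WT replicate 3 and below 3 FPKM in every ostie1-1 library. Of the 21 genes named by rule that passed with all libraries, 6 passed in every fit that left out 1 library. They were these 2 genes, CKX2, BZR1, MADS6 and the protease inhibitor gene LOC_Os01g04050. With stage 10 libraries only, 4 of the 21 passed and 17 did not. The 4 were CKX2, BZR1, MADS6 and LOC_Os10g05750.

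A near on-off pattern was seen at few loci. Below 1 FPKM in every WT library and at 5 FPKM or more in every ostie1-1 library were 24 genes, and the reverse held for 7. Ignoring WT replicate 3, these counts were 90 and 20. The called genes were spread over the genome: the share called with all libraries ran from 1.83% of the genes tested on chromosome 12 to 3.88% on chromosome 10. The longest runs of neighbouring tested loci called in the same direction held 3 genes. The 4 such runs were all of genes that rose, as did 500 of the 618 called genes, and some runs of 2 genes fell.

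The cytokinin genes held the largest rise with all libraries, which was the second largest without WT replicate 3. Cytokinins are made through isopentenyltransferases (IPT), sensed by histidine kinase receptors, passed on to response regulators (RR) and broken down by cytokinin oxidases (CKX). CKX2 (LOC_Os01g10110), the oxidase known for its effect on grain number in rice, stood at 0.990, 0.494 and 0.571 FPKM in WT and 113, 124 and 153 FPKM in ostie1-1. Its log2 change was 6.44 ± 0.27 with all libraries (adjusted p = 1.47e-06) and 6.52 ± 0.25 without WT replicate 3 (adjusted p = 2.18e-06). In WT, replicate 3 was as low as the other WT libraries here, and every ostie1-1 library was far above every WT library. The gene passed in 11 of 11 fits that left out 1 library, with an adjusted p of up to 5.57e-05 without ostie1-1 replicate 2.

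Of 7 tested cytokinin inactivation genes, CKX2 alone rose with all libraries and 6 did not pass (median log2 fold change 1.08), where 2.35% of all genes tested rose. With WT replicate 3 left out, 4 passed higher and 3 did not pass (median 1.85), against 18.8% of all genes passing higher. CKX11 (LOC_Os08g35860), with 8.65, 8.42 and 118 FPKM in WT and 67.4, 51.4 and 41.6 FPKM in ostie1-1, passed in that fit (log2 change 2.86 ± 0.34 without WT replicate 3, adjusted p = 0.000516; 1.41 ± 0.92 with all libraries, adjusted p = 0.420). It is a case where WT replicate 3 was the highest of the 6 libraries, so the groups overlapped. CKX1 (LOC_Os01g09260) was at 9.07, 9.03 and 15.9 FPKM in WT and 22.2, 36.96 and 29.5 FPKM in ostie1-1 (log2 change 1.95 ± 0.32 without WT replicate 3, adjusted p = 0.00186; 1.47 ± 0.42 with all libraries, adjusted p = 0.0939). The groups of CKX1 did not overlap, although it did not pass with all libraries. CKX8† (LOC_Os04g44230), at 0.406, 0.399 and 9.51 FPKM in WT and 2.48, 3.70 and 4.12 FPKM in ostie1-1, passed without WT replicate 3 (log2 change 1.85 ± 0.35 without WT replicate 3, adjusted p = 0.00357; 0.69 ± 0.75 with all libraries, adjusted p = 0.635). As for CKX11, WT replicate 3 was the highest library of CKX8.

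All 12 tested genes of cytokinin synthesis and response had a positive log2 fold change with all libraries, and 11 did without WT replicate 3. The medians over all genes were -0.01 and 0.04 in these fits. Of these 12, 2 rose and 10 did not pass with all libraries (median 0.58), and 7 passed higher and 5 did not pass without WT replicate 3 (median 1.11). Under TPM the medians of the list were 0.35 and 0.64. IPT7† (LOC_Os05g47840) read 10.4, 10.8 and 27.3 FPKM in WT and 68.1, 84.5 and 103 FPKM in ostie1-1. It rose with a log2 change of 2.59 ± 0.55 with all libraries (adjusted p = 0.0320) and 3.25 ± 0.42 without WT replicate 3 (adjusted p = 0.000754), and no ostie1-1 library overlapped the WT libraries. RR10 (LOC_Os12g04500), a type-A response regulator that cytokinin induces, read 36.1, 32.7 and 17.9 FPKM in WT and 112, 104 and 85.9 FPKM in ostie1-1 (log2 change 1.98 ± 0.46 with all libraries, adjusted p = 0.0448; 1.91 ± 0.51 without WT replicate 3, adjusted p = 0.0169). Of the WT libraries, replicate 3 was the lowest library for RR10, on the far side from ostie1-1. RR10 has a close copy, RR9, which is listed at or near 0 in all 6 libraries, and how the authors treated reads shared by copies is not given in the sources used here. IPT7 passed in 4 of 11 fits that left out 1 library, with an adjusted p of up to 0.137 without WT replicate 1. RR10 passed in 4 of 11 fits that left out 1 library, with an adjusted p of up to 0.168 without ostie1-1 replicate 2. RR10 did not pass with all libraries under FPKM as deposited (adjusted p = 0.0765) or TPM (adjusted p = 0.0988). IPT8† (LOC_Os01g49390, log2 change 3.70 ± 0.64 without WT replicate 3, adjusted p = 0.00238; 2.48 ± 0.91 with all libraries, adjusted p = 0.185) and the receptor gene HK4 (LOC_Os03g50860, log2 change 1.20 ± 0.28 without WT replicate 3, adjusted p = 0.00861; 0.94 ± 0.32 with all libraries, adjusted p = 0.157) passed without WT replicate 3. IPT8 was 2.57, 5.63 and 36.96 FPKM in WT and 17.7, 82 and 77.97 FPKM in ostie1-1, with ostie1-1 replicate 1 below WT replicate 3.

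**Figure D3:**
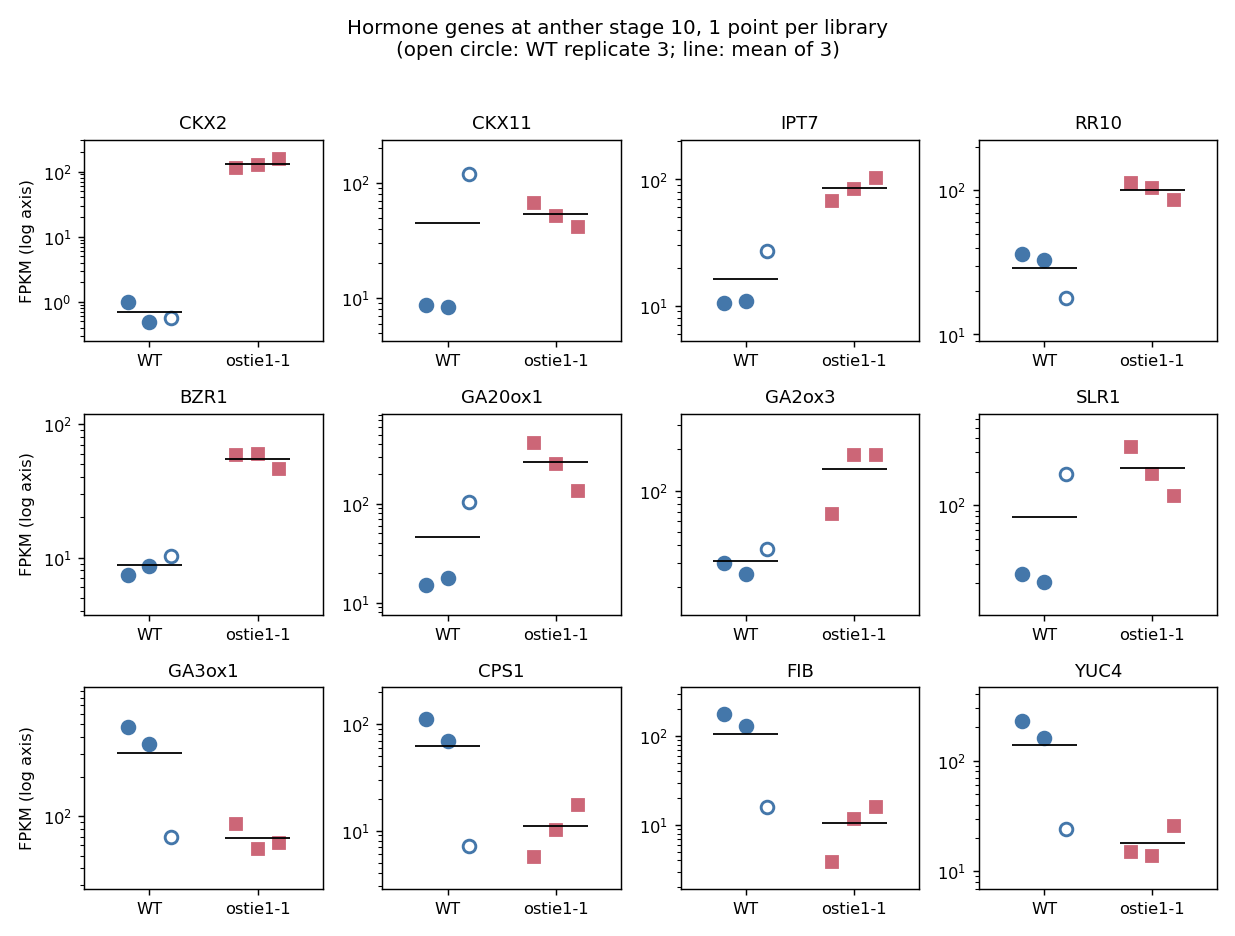
FPKM of 12 hormone genes in the stage 10 libraries, on log axes that differ between panels. Circles are WT libraries, with WT replicate 3 open, squares are ostie1-1 libraries, and each line is the mean of 3. CKX2, IPT7, RR10, BZR1, GA20ox1 and GA2ox3 have groups that do not overlap, and in CKX11, SLR1, GA3ox1, CPS1, FIB and YUC4 WT replicate 3 lies within or beyond the range of the ostie1-1 libraries.

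Brassinosteroids act through the receptor BRI1 and the transcription factor BZR1. BZR1 (LOC_Os07g39220) read 7.39, 8.62 and 10.2 FPKM in WT and 58.5, 60.1 and 46.1 FPKM in ostie1-1. It rose with a log2 change of 2.67 ± 0.35 with all libraries (adjusted p = 0.00347) and 3.002 ± 0.30 without WT replicate 3 (adjusted p = 0.000289), and all 3 ostie1-1 libraries lay several-fold above all WT libraries. BZR1 passed in 11 of 11 fits that left out 1 library, with an adjusted p of up to 0.0275 without ostie1-1 replicate 2. Of 6 tested brassinosteroid genes the other 5 did not pass with all libraries (median 0.28). Leaving out WT replicate 3, 3 passed higher and 3 did not (median 0.91), among them BRI1 (LOC_Os01g52050, log2 change 1.52 ± 0.42 without WT replicate 3, adjusted p = 0.0195; 0.99 ± 0.50 with all libraries, adjusted p = 0.304).

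Auxin genes passed in both directions only without WT replicate 3. Indole-3-pyruvate is made by the aminotransferase FIB and turned into auxin by YUCCA monooxygenases (YUC), while GH3 enzymes tie auxin to amino acids. Of 11 tested genes, YUC5 rose with all libraries and 10 did not pass (median 0.47). In the second fit, 4 passed higher, 2 passed lower and 5 did not pass (median 0.53), beside 14.9% of all genes passing lower. YUC5† (LOC_Os12g32750) was 0.336, 0.102 and 2.68 FPKM in WT and 51.4, 15.6 and 10.9 FPKM in ostie1-1 (log2 change 3.69 ± 0.68 with all libraries, adjusted p = 0.0159; 4.40 ± 0.61 without WT replicate 3, adjusted p = 0.000981). All ostie1-1 libraries exceeded the WT libraries, with replicate 1 the highest by far. YUC5 passed in 8 of 11 fits that left out 1 library, with an adjusted p of up to 0.0756 without WT replicate 1. FIB (LOC_Os01g07500) was 176, 128 and 15.8 FPKM in WT and 3.83, 11.6 and 15.8 FPKM in ostie1-1. Its log2 change was -3.54 ± 0.63 without WT replicate 3 (adjusted p = 0.00266) and -2.71 ± 0.75 with all libraries (adjusted p = 0.0841). The second YUCCA gene, YUC4† (LOC_Os01g12490), had 229.8, 162 and 23.99 FPKM in WT and 15.1, 13.9 and 25.7 FPKM in ostie1-1 (log2 change -2.997 ± 0.35 without WT replicate 3, adjusted p = 0.000514; -2.25 ± 0.56 with all libraries, adjusted p = 0.0609). In both, WT replicates 1 and 2 were high and WT replicate 3 was at the level of the ostie1-1 libraries. GH3.2 (LOC_Os01g55940) was 33.96, 30.5 and 149 FPKM in WT and 104, 112 and 81.7 FPKM in ostie1-1 and passed higher without WT replicate 3 (log2 change 1.98 ± 0.36 without WT replicate 3, adjusted p = 0.00298; 1.01 ± 0.66 with all libraries, adjusted p = 0.423). It was highest in WT replicate 3.

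Gibberellin (GA) genes likewise passed in both directions only without WT replicate 3. CPS1 makes the first committed precursor, GA20-oxidases and GA3-oxidases make active GA, GA2-oxidases and EUI1 inactivate it, and GID1 and the DELLA repressor SLR1 sense it. Of 14 tested genes, GA2ox3 rose with all libraries and 13 did not pass (median -0.16). Without WT replicate 3 there were 8 higher, 2 lower and 4 that did not pass (median 0.92). Of all genes, 18.8% passed higher and 14.9% lower in that fit, so the share of GA genes passing lower was near that of all genes. GA2ox3† (LOC_Os01g55240) was 29.5, 24.9 and 37.7 FPKM in WT and 67.5, 181 and 182 FPKM in ostie1-1 (log2 change 2.23 ± 0.41 with all libraries, adjusted p = 0.0170; 2.62 ± 0.37 without WT replicate 3, adjusted p = 0.00103). All ostie1-1 libraries were above all WT libraries, with ostie1-1 replicate 1 the lowest of its group. GA2ox3 passed in 7 of 11 fits that left out 1 library, with an adjusted p of up to 0.0939 without ostie1-1 replicate 2. GA20ox1† (LOC_Os03g63970) was 14.9, 17.9 and 105 FPKM in WT and 409, 249.6 and 135 FPKM in ostie1-1, without overlap before scaling only (log2 change 4.18 ± 0.60 without WT replicate 3, adjusted p = 0.00107; 3.08 ± 0.84 with all libraries, adjusted p = 0.0828).

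The genes that passed lower were GA3ox1 and CPS1, both only without WT replicate 3. GA3ox1† (LOC_Os05g08540), which completes active GA, was 479.5, 358 and 69.3 FPKM in WT and 86.7, 55.8 and 62.5 FPKM in ostie1-1 (log2 change -2.21 ± 0.42 without WT replicate 3, adjusted p = 0.00381; -1.59 ± 0.54 with all libraries, adjusted p = 0.156). CPS1 (LOC_Os02g17780) was 111, 69 and 7.13 FPKM in WT and 5.67, 10.1 and 17.5 FPKM in ostie1-1 (log2 change -2.62 ± 0.53 without WT replicate 3, adjusted p = 0.00471; -1.69 ± 0.73 with all libraries, adjusted p = 0.245). In both, WT replicate 3 lay within the range of ostie1-1. SLR1 (LOC_Os03g49990) was 24.4, 20.7 and 193 FPKM in WT and 334, 189.7 and 121 FPKM in ostie1-1 and passed higher in that fit (log2 change 3.46 ± 0.45 without WT replicate 3, adjusted p = 0.000751; 2.21 ± 0.85 with all libraries, adjusted p = 0.198). EUI1 (LOC_Os05g40384) also passed higher (log2 change 2.35 ± 0.32 without WT replicate 3, adjusted p = 0.000866; 1.44 ± 0.62 with all libraries, adjusted p = 0.248). The GA receptor gene GID1 (LOC_Os05g33730) was 29.1, 23.5 and 175 FPKM in WT and 65.9, 59.1 and 45.1 FPKM in ostie1-1. GID1 passed higher without WT replicate 3 (log2 change 1.46 ± 0.33 without WT replicate 3, adjusted p = 0.00756; 0.32 ± 0.74 with all libraries, adjusted p = 0.833), yet WT replicate 3 was far above every ostie1-1 library. With FPKM as deposited or TPM, 5 passed higher and 4 lower in the same fit.

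A lipoxygenase gene and a JAZ repressor gene rose with all libraries. Lipoxygenases (LOX), allene oxide synthase (AOS) and allene oxide cyclase (AOC) make JA, the receptor COI1 and JAZ repressors sense it, and MYC2 activates its targets. Of 11 tested JA biosynthesis genes, 1 rose with all libraries and 10 did not pass (median 0.20). In the fit without WT replicate 3, 6 passed higher, 1 passed lower and 4 did not pass (median 1.04). The lipoxygenase gene LOC_Os04g37430 was 1.88, 1.64 and 5.72 FPKM in WT and 17.3, 29.2 and 18.6 FPKM in ostie1-1. It rose (log2 change 2.69 ± 0.54 with all libraries, adjusted p = 0.0261; 3.32 ± 0.43 without WT replicate 3, adjusted p = 0.000754) without overlap of the groups, and it passed in 5 of 11 fits that left out 1 library, with an adjusted p of up to 0.131 without ostie1-1 replicate 2. AOS1 (LOC_Os03g55800) was 10.8, 10.2 and 49.8 FPKM in WT and 83.02, 61.3 and 42.4 FPKM in ostie1-1 and passed without WT replicate 3 (log2 change 2.79 ± 0.35 without WT replicate 3, adjusted p = 0.000660; 1.84 ± 0.65 with all libraries, adjusted p = 0.173). WT replicate 3 lay inside the ostie1-1 range for AOS1 and below it for AOC (LOC_Os03g32314), at 19.7, 19.7 and 32.01 FPKM in WT and 81.99, 48.6 and 37.9 FPKM in ostie1-1 (log2 change 1.78 ± 0.38 without WT replicate 3, adjusted p = 0.00590; 1.32 ± 0.44 with all libraries, adjusted p = 0.152). A further lipoxygenase gene, LOC_Os03g08220, also passed higher (log2 change 1.36 ± 0.27 without WT replicate 3, adjusted p = 0.00492; 1.04 ± 0.32 with all libraries, adjusted p = 0.127). The member that passed lower was the lipoxygenase gene LOC_Os06g04420, at 5.70, 7.39 and 1.95 FPKM in WT and 1.41, 2.03 and 0.688 FPKM in ostie1-1 (log2 change -1.41 ± 0.34 without WT replicate 3, adjusted p = 0.0102; -1.12 ± 0.36 with all libraries, adjusted p = 0.134).

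Of 13 tested JA signalling genes, JAZ8 rose with all libraries and 12 did not pass (median 1.04). With WT replicate 3 left out, 8 passed higher and 5 did not pass (median 1.61). JAZ8† (LOC_Os09g26780) was 9.91, 10.1 and 16.1 FPKM in WT and 33.6, 66.03 and 67.4 FPKM in ostie1-1 (log2 change 2.23 ± 0.45 with all libraries, adjusted p = 0.0242; 2.67 ± 0.39 without WT replicate 3, adjusted p = 0.00112). Its groups did not overlap, and it passed in 7 of 11 fits that left out 1 library, with an adjusted p of up to 0.124 without ostie1-1 replicate 2. COI1b (LOC_Os05g37690) was 8.45, 6.57 and 40.4 FPKM in WT and 38.95, 41.8 and 31.03 FPKM in ostie1-1, with WT replicate 3 among the ostie1-1 libraries (log2 change 2.54 ± 0.27 without WT replicate 3, adjusted p = 0.000359; 1.54 ± 0.65 with all libraries, adjusted p = 0.236). MYC2† (LOC_Os10g42430, log2 change 1.90 ± 0.29 without WT replicate 3, adjusted p = 0.00149; 1.32 ± 0.44 with all libraries, adjusted p = 0.152) and JAZ13 (LOC_Os10g25230, log2 change 1.61 ± 0.28 without WT replicate 3, adjusted p = 0.00260; 0.61 ± 0.65 with all libraries, adjusted p = 0.625) passed in the same fit. JAZ13 was 101, 94.1 and 473 FPKM in WT and 162, 276 and 265 FPKM in ostie1-1, so WT replicate 3 was the highest of all 6 libraries.

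JA-inducible defence genes did not pass with all libraries by limma (0 of 4, with 1 at an unadjusted p below 0.05, median 0.27). Leaving out WT replicate 3, 2 of 4 passed higher (median 1.01), among them JAmyb (LOC_Os11g45740, log2 change 2.63 ± 0.37 without WT replicate 3, adjusted p = 0.000981; 1.98 ± 0.51 with all libraries, adjusted p = 0.0688). Bowman-Birk inhibitors are small proteins that block proteases and that wounding and JA induce. Of 6 tested, 1 rose with all libraries and 5 did not pass (median 0.55), and 4 passed higher and 2 did not pass without WT replicate 3 (median 2.01). The inhibitor gene LOC_Os01g04050 had the second largest rise with all libraries and the largest without WT replicate 3, at 2.32, 3.18 and 44.9 FPKM in WT and 697, 596 and 366 FPKM in ostie1-1 (log2 change 6.07 ± 0.96 with all libraries, adjusted p = 0.00808; 7.51 ± 0.49 without WT replicate 3, adjusted p = 0.000130). The library WT replicate 3 was above the other WT libraries but far below every ostie1-1 library. The gene passed in 11 of 11 fits that left out 1 library, with an adjusted p of up to 0.0469 without ostie1-1 replicate 2. Of further members on chromosome 1, LOC_Os01g03330 passed without WT replicate 3 (log2 change 2.48 ± 0.50 without WT replicate 3, adjusted p = 0.00471; 2.01 ± 0.53 with all libraries, adjusted p = 0.0722). LOC_Os01g03390 was 1.30, 1.60 and 81.05 FPKM in WT and 16.2, 7.71 and 4.70 FPKM in ostie1-1 (log2 change 2.26 ± 0.57 without WT replicate 3, adjusted p = 0.0135; 0.35 ± 1.24 with all libraries, adjusted p = 0.898). LOC_Os01g03360 was 71.5, 63.6 and 368 FPKM in WT and 321, 136 and 125 FPKM in ostie1-1 (log2 change 1.77 ± 0.53 without WT replicate 3, adjusted p = 0.0280; 0.72 ± 0.79 with all libraries, adjusted p = 0.637). The last 2 passed higher without WT replicate 3, but that library was above every ostie1-1 library in both. LOC_Os01g03360 did not pass without WT replicate 3 under TPM (adjusted p = 0.0553). LOC_Os01g03320 went the other way, at 4.66, 3.99 and 29.4 FPKM in WT and 2.90, 0.801 and 0.452 FPKM in ostie1-1. Its groups did not overlap before scaling, but it passed in neither fit. Its log2 change was -2.05 ± 0.75 with all libraries (adjusted p = 0.183) and -1.003 ± 0.45 without WT replicate 3 (adjusted p = 0.1085). With FPKM as deposited or TPM, 1 member of the list passed lower without WT replicate 3. Members of this family share sequence, so how reads were split among them is uncertain.

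TCP proteins are the known partners of TIE1 in Arabidopsis. Of 15 tested TCP genes, 1 rose with all libraries and 14 did not pass (median 0.82). In the second fit, 10 passed higher, 0 passed lower and 5 did not pass (median 1.13). PCF3 (LOC_Os11g07460) was 0.169, 0.166 and 1.02 FPKM in WT and 5.33, 4.90 and 5.14 FPKM in ostie1-1 (log2 change 2.19 ± 0.39 with all libraries, adjusted p = 0.0132; 2.59 ± 0.36 without WT replicate 3, adjusted p = 0.000919). The groups did not overlap, and it passed in 7 of 11 fits that left out 1 library, with an adjusted p of up to 0.0693 without WT replicate 1. PCF8 (LOC_Os12g42190) was 1.03, 1.12 and 10.4 FPKM in WT and 8.47, 14.9 and 8.13 FPKM in ostie1-1, with WT replicate 3 inside the ostie1-1 range (log2 change 2.71 ± 0.33 without WT replicate 3, adjusted p = 0.000558; 1.68 ± 0.68 with all libraries, adjusted p = 0.221). PCF6 (LOC_Os03g57190) passed in the same fit (log2 change 2.65 ± 0.47 without WT replicate 3, adjusted p = 0.00263; 1.84 ± 0.64 with all libraries, adjusted p = 0.164). PCF5 (LOC_Os01g11550), which also passed, was 1.31, 1.77 and 7.26 FPKM in WT and 13.4, 12.5 and 7.99 FPKM in ostie1-1 (log2 change 2.55 ± 0.41 without WT replicate 3, adjusted p = 0.00171; 1.78 ± 0.59 with all libraries, adjusted p = 0.148). Its groups did not overlap before scaling, by a narrow gap. TCP21† (LOC_Os07g05720) was 3.56, 3.90 and 14.8 FPKM in WT and 36.1, 24.7 and 13.7 FPKM in ostie1-1 (log2 change 2.70 ± 0.43 without WT replicate 3, adjusted p = 0.00164; 1.90 ± 0.62 with all libraries, adjusted p = 0.141), where WT replicate 3 slightly exceeded the lowest ostie1-1 library. ASP1† (LOC_Os08g06480), a TOPLESS-like corepressor gene and the 1 of 3 listed that was tested, was 22.3, 18.1 and 23.2 FPKM in WT and 41.3, 49.8 and 43.3 FPKM in ostie1-1. It passed without WT replicate 3 (log2 change 1.50 ± 0.23 without WT replicate 3, adjusted p = 0.00148; 1.20 ± 0.30 with all libraries, adjusted p = 0.0585).

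All 3 tested GRF genes had a positive log2 change in both fits, where the medians over all genes were -0.01 and 0.04. GRF proteins are growth-regulating factors that act with GIF coactivators. Of 3 tested, GRF1 rose and 2 did not pass with all libraries (median 1.32), and all 3 passed higher without WT replicate 3 (median 1.76). GRF1 (LOC_Os02g53690) was 0.129, 0.127 and 0.298 FPKM in WT and 1.82, 2.45 and 3.08 FPKM in ostie1-1 (log2 change 1.61 ± 0.30 with all libraries, adjusted p = 0.0167; 1.76 ± 0.33 without WT replicate 3, adjusted p = 0.00327). All WT libraries were low and all ostie1-1 libraries higher, and GRF1 passed in 7 of 11 fits that left out 1 library, with an adjusted p of up to 0.0819 without WT replicate 2. GRF6 (LOC_Os03g51970) passed without WT replicate 3 (log2 change 1.95 ± 0.37 without WT replicate 3, adjusted p = 0.00391; 1.32 ± 0.49 with all libraries, adjusted p = 0.188). GRF9† (LOC_Os03g47140) passed there as well (log2 change 1.10 ± 0.37 without WT replicate 3, adjusted p = 0.0430; 1.01 ± 0.36 with all libraries, adjusted p = 0.175). GRF9 did not pass without WT replicate 3 under FPKM as deposited (adjusted p = 0.132), TPM (adjusted p = 0.188) or quantile normalization (adjusted p = 0.0786). Of 7 tested SPL genes, SPL16 rose with all libraries and 6 did not pass (median -0.03), and SPL16 and SPL18 passed higher without WT replicate 3 (median 0.20). That last median was -0.11 with FPKM as deposited and -0.20 with TPM. SPL16 (LOC_Os08g41940), known for its effect on grain width, was 0.0951, 0.234 and 0.0823 FPKM in WT and 1.20, 1.03 and 0.761 FPKM in ostie1-1 (log2 change 0.90 ± 0.19 with all libraries, adjusted p = 0.0343; 0.91 ± 0.22 without WT replicate 3, adjusted p = 0.0102). It passed in 4 of 9 fits that left out 1 library, with an adjusted p of up to 0.150 without WT replicate 1. SPL16 did not pass with all libraries under TPM (adjusted p = 0.0542) or quantile normalization (adjusted p = 0.0983). SPL18† (LOC_Os09g32944) was 0.487, 0.422 and 0.767 FPKM in WT and 7.81, 2.52 and 1.96 FPKM in ostie1-1 (log2 change 1.86 ± 0.52 without WT replicate 3, adjusted p = 0.0202; 1.65 ± 0.47 with all libraries, adjusted p = 0.0945).

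Of 15 listed KNOX, YABBY and HD-ZIP III genes 3 were tested, and 0 passed with all libraries by limma (2 at an unadjusted p below 0.05, median 1.22). OSHB1 (LOC_Os03g01890) and OSHB3† (LOC_Os12g41860), of the HD-ZIP III family that sets the upper side of organs, passed higher without WT replicate 3 (median of the 3 genes 1.72). OSHB1 was 4.48, 4.55 and 9.89 FPKM in WT and 12.7, 15.4 and 13.2 FPKM in ostie1-1 (log2 change 1.77 ± 0.25 without WT replicate 3, adjusted p = 0.00105; 1.22 ± 0.42 with all libraries, adjusted p = 0.159), and OSHB3 had a log2 change of 1.72 ± 0.42 without WT replicate 3 (adjusted p = 0.0112) and 1.27 ± 0.47 with all libraries (adjusted p = 0.188). Both had groups that did not overlap before scaling.

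MADS-box genes of floral organs included a large rise. MADS6 (LOC_Os02g45770), an AGL6-type gene of floral meristem and organ identity, was 3.02, 1.64 and 3.61 FPKM in WT and 59.3, 114 and 119.5 FPKM in ostie1-1. It rose with a log2 change of 4.82 ± 0.61 with all libraries (adjusted p = 0.00265) and 5.19 ± 0.65 without WT replicate 3 (adjusted p = 0.000654), and every ostie1-1 library was far above every WT library. MADS6 passed in 11 of 11 fits that left out 1 library, with an adjusted p of up to 0.0212 without ostie1-1 replicate 2. In the list of pistil, glume and meristem MADS genes, the other 9 tested members did not pass with all libraries (median of 10 tested 0.25), and MADS34 passed with MADS6 without WT replicate 3 (median 0.58). That fit called 18.8% of all genes higher, near the share of this list. MADS34 (LOC_Os03g54170) was 6.39, 6.05 and 10.4 FPKM in WT and 19.9, 16.4 and 14.5 FPKM in ostie1-1 (log2 change 1.66 ± 0.29 without WT replicate 3, adjusted p = 0.00248; 1.22 ± 0.39 with all libraries, adjusted p = 0.134). The most abundant member, MADS8 (LOC_Os09g32948), was 383, 455 and 517 FPKM in WT and 364, 603 and 573 FPKM in ostie1-1 (log2 change 0.32 ± 0.38 with all libraries, adjusted p = 0.665; 0.66 ± 0.33 without WT replicate 3, adjusted p = 0.145), so the groups overlapped.

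Among stamen identity MADS genes, MADS58 rose and 2 of 3 tested did not pass with all libraries (median 1.21), and all 3 passed higher without WT replicate 3 (median 1.52). MADS58 (LOC_Os05g11414), a C-class gene, was 2.67, 2.72 and 13.02 FPKM in WT and 41.3, 35.5 and 25.1 FPKM in ostie1-1 (log2 change 2.69 ± 0.61 with all libraries, adjusted p = 0.0414; 3.55 ± 0.36 without WT replicate 3, adjusted p = 0.000289). It passed in 1 of 11 fits that left out 1 library, with an adjusted p of up to 0.171 without WT replicate 2. The fit it passed in was the one without WT replicate 3. MADS3 (LOC_Os01g10504), the other C-class gene, was 61.2, 73.6 and 57.03 FPKM in WT and 83.9, 178 and 132 FPKM in ostie1-1 (log2 change 1.29 ± 0.30 without WT replicate 3, adjusted p = 0.00884; 1.13 ± 0.30 with all libraries, adjusted p = 0.0785). MADS3 did not pass without WT replicate 3 under TPM (adjusted p = 0.0700). MADS4 (LOC_Os05g34940), a B-class gene, was 0.696, 1.31 and 1.67 FPKM in WT and 4.20, 3.997 and 3.08 FPKM in ostie1-1 (log2 change 1.52 ± 0.28 without WT replicate 3, adjusted p = 0.00336; 1.21 ± 0.32 with all libraries, adjusted p = 0.0768). In none of the 3 did the groups overlap. MADS16 and MADS2, further B-class genes with several transcript models, were listed at or near 0 in all 6 libraries. Such loci were often listed at 0 (2141 of 6457 in every library of the table), so their low value is not read as absence of the transcript.

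Other organs that a sample of anthers could hold were looked at through their markers. The pistil genes DL, MADS13 and MADS21 were listed at 0 in all 6 libraries, but these loci have several transcript models. The lemma and palea gene MADS1 (LOC_Os03g11614), with 1 model, was 1.30, 1.53 and 3.06 FPKM in WT and 0.876, 2.06 and 3.32 FPKM in ostie1-1 (log2 change 0.07 ± 0.50 with all libraries, adjusted p = 0.951; 0.50 ± 0.48 without WT replicate 3, adjusted p = 0.455), low in both groups. MADS14 and MADS15, also chosen as lemma, palea and glume markers, passed in neither fit, and their levels are not given here. The part of such tissue in these results was not tested.

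Tapetum regulators did not pass with all libraries by limma (0 of 8, and 0 at an unadjusted p below 0.05, median 0.43). In the fit without WT replicate 3, TDR and TIP2 passed higher and 6 did not pass (median 0.70, but -0.04 with quantile normalization). That fit called 18.8% of all genes higher, so 2 of 8 tapetum genes were near the share of all genes. TIP2 (LOC_Os01g18870), a bHLH factor that acts in tapetum differentiation, was 6.88, 5.58 and 49.3 FPKM in WT and 52.7, 36.6 and 26.7 FPKM in ostie1-1 (log2 change 2.78 ± 0.35 without WT replicate 3, adjusted p = 0.000669; 1.61 ± 0.77 with all libraries, adjusted p = 0.285). TDR (LOC_Os02g02820), a bHLH factor of tapetum breakdown, was 122, 134 and 471 FPKM in WT and 286, 396 and 375 FPKM in ostie1-1 (log2 change 1.84 ± 0.46 without WT replicate 3, adjusted p = 0.0123; 0.97 ± 0.66 with all libraries, adjusted p = 0.438). In both, WT replicate 3 was inside or above the ostie1-1 range. TDR did not pass without WT replicate 3 under TPM (adjusted p = 0.0552). UDT1 (LOC_Os07g36460), which acts earlier, was 23.9, 34.3 and 50.2 FPKM in WT and 15.5, 22.3 and 31.1 FPKM in ostie1-1, and EAT1 (LOC_Os04g51070), which acts with TDR, was 94.7, 112 and 139 FPKM in WT and 92.2, 271 and 262 FPKM in ostie1-1. Neither passed in either fit. RTS (LOC_Os01g70440), a gene of the tapetum, was 15674, 22233 and 21701 FPKM in WT and 25620, 49904 and 64194 FPKM in ostie1-1 (log2 change 1.30 ± 0.82 with all libraries, adjusted p = 0.406; 1.62 ± 0.86 without WT replicate 3, adjusted p = 0.173). The groups of RTS did not overlap, yet its spread in ostie1-1 was wide. In whole anthers, fewer cells of a type and less RNA per cell cannot be told apart.

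Pollen wall and cuticle genes had the highest list median without WT replicate 3. Of 11 tested, 1 rose with all libraries and 10 did not pass (median 0.79), and 6 of 10 passed higher and 4 did not without WT replicate 3 (median 2.04). The gene that rose was WDA1† (LOC_Os10g33250), of wax and wall synthesis, at 0.576, 0.286 and 0.174 FPKM in WT and 0.766, 2.71 and 2.40 FPKM in ostie1-1 (log2 change 1.18 ± 0.27 with all libraries, adjusted p = 0.0437; 1.16 ± 0.30 without WT replicate 3, adjusted p = 0.0154). WDA1 passed in 2 of 11 fits that left out 1 library, with an adjusted p of up to 0.199 without ostie1-1 replicate 2. WDA1 did not pass with all libraries under FPKM as deposited (adjusted p = 0.0785), TPM (adjusted p = 0.0937) or quantile normalization (adjusted p = 0.0780). GPAT3† (LOC_Os11g45400), an acyltransferase of cutin and pollen wall lipids, was 4.02, 1.90 and 15.2 FPKM in WT and 41.4, 37.1 and 22.2 FPKM in ostie1-1 (log2 change 3.47 ± 0.40 without WT replicate 3, adjusted p = 0.000476; 2.56 ± 0.65 with all libraries, adjusted p = 0.0663). Its groups did not overlap. ABCG26† (LOC_Os10g35180), a lipid transporter, was 94.4, 105 and 286 FPKM in WT and 275, 418 and 399 FPKM in ostie1-1 (log2 change 2.23 ± 0.33 without WT replicate 3, adjusted p = 0.00125; 1.49 ± 0.54 with all libraries, adjusted p = 0.181). DPW† (LOC_Os03g07140), a fatty acyl reductase, was 12.5, 15.5 and 55.8 FPKM in WT and 48.9, 62.5 and 65.1 FPKM in ostie1-1 (log2 change 2.37 ± 0.47 without WT replicate 3, adjusted p = 0.00465; 1.50 ± 0.67 with all libraries, adjusted p = 0.264). STRL2† (LOC_Os03g15710) was 5.85, 7.69 and 56.1 FPKM in WT and 20.1, 27.2 and 21.5 FPKM in ostie1-1 (log2 change 1.99 ± 0.26 without WT replicate 3, adjusted p = 0.000734; 0.79 ± 0.76 with all libraries, adjusted p = 0.583). In WT, replicate 3 was within or above the ostie1-1 libraries in ABCG26, DPW and STRL2. The lipid transfer gene C6 (LOC_Os11g37280), the most abundant member, was 7964, 9272 and 10460 FPKM in WT and 5220, 8651 and 13211 FPKM in ostie1-1 (log2 change 0.03 ± 0.64 with all libraries, adjusted p = 0.982; 0.37 ± 0.65 without WT replicate 3, adjusted p = 0.693) and overlapped.

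With all libraries, 1 sugar supply gene rose and 1 starch gene fell. SWEET11 (LOC_Os08g42350), a sucrose transporter, was 112, 82.9 and 43.2 FPKM in WT and 143, 206 and 207 FPKM in ostie1-1. It rose (log2 change 1.46 ± 0.31 with all libraries, adjusted p = 0.0343; 1.31 ± 0.31 without WT replicate 3, adjusted p = 0.00964), with WT replicate 3 the lowest library, and SWEET11 passed in 4 of 11 fits that left out 1 library, with an adjusted p of up to 0.157 without ostie1-1 replicate 2. SWEET11 did not pass with all libraries under FPKM as deposited (adjusted p = 0.112) or TPM (adjusted p = 0.154), nor without WT replicate 3 under TPM (adjusted p = 0.0618). It was the 1 of 6 tested sugar supply genes that passed with all libraries (5 did not pass, median 0.61). With WT replicate 3 left out, SWEET11 and CSA passed higher, INV4 passed lower and 3 did not pass (median 0.99). CSA† (LOC_Os01g16810), a MYB factor of sugar partitioning to anthers, was 88.8, 97.2 and 171 FPKM in WT and 181, 339.7 and 349.9 FPKM in ostie1-1 (log2 change 1.97 ± 0.64 without WT replicate 3, adjusted p = 0.0376; 1.44 ± 0.64 with all libraries, adjusted p = 0.261). Its groups did not overlap before scaling, by a narrow gap. CSA did not pass without WT replicate 3 under FPKM as deposited (adjusted p = 0.0977), TPM (adjusted p = 0.119) or quantile normalization (adjusted p = 0.0578). INV4 (LOC_Os04g33720), an anther invertase, was 938, 514 and 124 FPKM in WT and 238, 212 and 174 FPKM in ostie1-1 (log2 change -1.35 ± 0.45 without WT replicate 3, adjusted p = 0.0431; -0.76 ± 0.55 with all libraries, adjusted p = 0.466). Replicate 3 of WT was the lowest of all 6 libraries for INV4.

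Of 17 tested starch genes, SSIIc fell with all libraries and 16 did not pass (median -0.13, beside 0.555% of all genes that fell). Without WT replicate 3, 2 passed higher, 2 passed lower and 13 did not pass (median -0.05). Of all genes, 18.8% passed higher and 14.9% lower in that fit, so starch genes passed no more often than all genes. SSIIc (LOC_Os10g30156), a starch synthase, was 25.04, 25.5 and 10.1 FPKM in WT and 6.12, 6.94 and 6.98 FPKM in ostie1-1 (log2 change -1.22 ± 0.27 with all libraries, adjusted p = 0.0408; -1.41 ± 0.23 without WT replicate 3, adjusted p = 0.00179). Every ostie1-1 library was below every WT library, and SSIIc passed in 3 of 11 fits that left out 1 library, with an adjusted p of up to 0.195 without WT replicate 2. SSIIc did not pass with all libraries under FPKM as deposited (adjusted p = 0.0870) or TPM (adjusted p = 0.0886). AGPL3† (LOC_Os03g52460), a subunit of ADP-glucose pyrophosphorylase, was 14.7, 9.57 and 1.59 FPKM in WT and 0.937, 1.25 and 0.870 FPKM in ostie1-1 (log2 change -2.39 ± 0.31 without WT replicate 3, adjusted p = 0.000777; -1.78 ± 0.48 with all libraries, adjusted p = 0.0771). The library WT replicate 3 was just above the ostie1-1 libraries. The debranching enzyme gene ISA1 (LOC_Os08g40930) passed higher in that fit (log2 change 1.51 ± 0.34 without WT replicate 3, adjusted p = 0.00771; 1.03 ± 0.43 with all libraries, adjusted p = 0.237). The starch synthase gene SSIIa (LOC_Os06g12450) did too (log2 change 0.77 ± 0.26 without WT replicate 3, adjusted p = 0.0428; 0.49 ± 0.31 with all libraries, adjusted p = 0.402). SSIIa did not pass without WT replicate 3 under FPKM as deposited (adjusted p = 0.299), TPM (adjusted p = 0.470) or quantile normalization (adjusted p = 0.0621).

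Of 10 late pollen genes, 0 passed with all libraries by limma (1 at an unadjusted p below 0.05, median -0.30). Leaving out WT replicate 3, EXPB9 passed higher, MADS62, MADS63 and MADS68 passed lower and 6 did not pass (median -0.59). Beside this, 18.8% of all genes passed higher and 14.9% lower in that fit. These MADS genes are of the MIKC*-type that acts in pollen. MADS63† (LOC_Os06g11970) was 89.98, 52.7 and 9.11 FPKM in WT and 10.1, 6.57 and 10.2 FPKM in ostie1-1 (log2 change -2.46 ± 0.32 without WT replicate 3, adjusted p = 0.000760; -1.75 ± 0.53 with all libraries, adjusted p = 0.113). MADS62† (LOC_Os08g38590) was 17.1, 11.6 and 2.43 FPKM in WT and 3.50, 3.08 and 5.53 FPKM in ostie1-1 (log2 change -1.27 ± 0.38 without WT replicate 3, adjusted p = 0.0258; -0.75 ± 0.48 with all libraries, adjusted p = 0.411), and MADS68† (LOC_Os11g43740) had a log2 change of -1.60 ± 0.41 without WT replicate 3 (adjusted p = 0.0145) and -0.92 ± 0.57 with all libraries (adjusted p = 0.397). In each, WT replicates 1 and 2 were the high pair and WT replicate 3 lay at or under the ostie1-1 level. EXPB9 (LOC_Os10g40730), a pollen expansin gene, was 48.9, 35.7 and 277 FPKM in WT and 152, 101 and 77.3 FPKM in ostie1-1 (log2 change 1.72 ± 0.42 without WT replicate 3, adjusted p = 0.0113; 0.58 ± 0.78 with all libraries, adjusted p = 0.705), highest in WT replicate 3.

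All 5 tested primary wall cellulose synthase genes had a positive log2 fold change in both fits, where the medians over all genes were -0.01 and 0.04. How many of all genes had a positive change was not counted. Of these 5, CESA1 rose and 4 did not pass with all libraries (median 1.27), and all 5 passed higher without WT replicate 3 (median 1.66). CESA1 (LOC_Os05g08370) was 32.9, 32.6 and 35.9 FPKM in WT and 55.5, 87.8 and 85.2 FPKM in ostie1-1 (log2 change 1.27 ± 0.29 with all libraries, adjusted p = 0.0438; 1.55 ± 0.24 without WT replicate 3, adjusted p = 0.00145). Its groups did not overlap, and it passed in 1 of 11 fits that left out 1 library, with an adjusted p of up to 0.202 without ostie1-1 replicate 2. The single fit it passed in left out WT replicate 3. CESA1 did not pass with all libraries under FPKM as deposited (adjusted p = 0.0683) or TPM (adjusted p = 0.102). CESA5 (LOC_Os03g62090) was 5.82, 6.29 and 5.28 FPKM in WT and 8.52, 22.3 and 22.6 FPKM in ostie1-1 (log2 change 1.66 ± 0.38 without WT replicate 3, adjusted p = 0.00823; 1.50 ± 0.37 with all libraries, adjusted p = 0.0592). CESA6 (LOC_Os07g14850) passed in the same fit (log2 change 1.69 ± 0.35 without WT replicate 3, adjusted p = 0.00573; 1.15 ± 0.47 with all libraries, adjusted p = 0.225), as did CESA2 (LOC_Os03g59340; log2 change 2.26 ± 0.51 without WT replicate 3, adjusted p = 0.00771; 1.46 ± 0.66 with all libraries, adjusted p = 0.263). CESA8 (LOC_Os07g10770) was the fifth (log2 change 1.21 ± 0.33 without WT replicate 3, adjusted p = 0.0187; 0.83 ± 0.39 with all libraries, adjusted p = 0.280). CESA8 did not pass without WT replicate 3 under FPKM as deposited (adjusted p = 0.0949) or TPM (adjusted p = 0.136).

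Of 14 tested secondary wall and lignin genes, 0 passed with all libraries by limma (2 at an unadjusted p below 0.05, median 0.02), and 6 passed higher and 8 did not without WT replicate 3 (median 0.69). The median with all libraries was -0.13 with FPKM as deposited. COMT1 (LOC_Os08g06100), a methyltransferase of lignin synthesis, was 84.3, 101 and 615 FPKM in WT and 804, 712 and 612 FPKM in ostie1-1 (log2 change 3.31 ± 0.47 without WT replicate 3, adjusted p = 0.00108; 2.17 ± 0.81 with all libraries, adjusted p = 0.189). CAD2 (LOC_Os02g09490), which makes lignin alcohols, was 111, 132 and 398 FPKM in WT and 733, 487 and 384 FPKM in ostie1-1 (log2 change 2.48 ± 0.70 without WT replicate 3, adjusted p = 0.0216; 1.67 ± 0.78 with all libraries, adjusted p = 0.278). The phenylalanine ammonia-lyase gene LOC_Os04g43760, at 6.60, 8.11 and 50.3 FPKM in WT and 49.4, 32.2 and 32.5 FPKM in ostie1-1, also passed in that fit (log2 change 2.57 ± 0.40 without WT replicate 3, adjusted p = 0.00158; 1.46 ± 0.75 with all libraries, adjusted p = 0.318). So did 4CL4 (LOC_Os06g44620; log2 change 0.87 ± 0.25 without WT replicate 3, adjusted p = 0.0233; 0.50 ± 0.34 with all libraries, adjusted p = 0.438). 4CL4 did not pass without WT replicate 3 under FPKM as deposited (adjusted p = 0.230) or TPM (adjusted p = 0.344). All 14 tested members were higher in WT replicate 3 than in WT replicates 1 and 2, and its summed level of the list was 7109 FPKM against 656 and 802 FPKM in WT and 1877 to 3830 FPKM in ostie1-1.

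Aquaporins, the channels that pass water through membranes, had one gene that fell. PIP1;3 (LOC_Os02g57720) was 21.2, 14.1 and 17.6 FPKM in WT and 3.19, 3.82 and 2.85 FPKM in ostie1-1 (log2 change -1.98 ± 0.38 with all libraries, adjusted p = 0.0186; -1.75 ± 0.37 without WT replicate 3, adjusted p = 0.00561). All 3 ostie1-1 libraries were well below all WT libraries. PIP1;3 passed in 8 of 11 fits that left out 1 library, with an adjusted p of up to 0.0775 without WT replicate 1. Of 14 tested aquaporin genes 13 did not pass with all libraries (median -0.14), and 4 passed higher, PIP1;3 passed lower and 9 did not pass without WT replicate 3 (median 0.77). Beside this, 18.8% of all genes passed higher and 14.9% lower in that fit. PIP2;7 (LOC_Os09g36930) was 386, 495 and 1717 FPKM in WT and 1116, 1834 and 1941 FPKM in ostie1-1 (log2 change 2.25 ± 0.41 without WT replicate 3, adjusted p = 0.00318; 1.36 ± 0.66 with all libraries, adjusted p = 0.296), with WT replicate 3 within ostie1-1. TIP4;2 (LOC_Os01g13130) was 13.4, 7.39 and 135 FPKM in WT and 67.1, 58.2 and 39.4 FPKM in ostie1-1, highest in WT replicate 3, and passed higher without it (log2 change 2.69 ± 0.49 without WT replicate 3, adjusted p = 0.00307; 1.24 ± 0.97 with all libraries, adjusted p = 0.497). Its neighbour TIP4;3† (LOC_Os01g13120) passed higher too (log2 change 2.21 ± 0.55 without WT replicate 3, adjusted p = 0.0123; 1.26 ± 0.74 with all libraries, adjusted p = 0.376).

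Of 9 listed clock genes 4 were tested. PRR1 and LUX rose and 2 did not pass (median 1.09), and PRR1, LUX and PRR73 passed higher without WT replicate 3 (median 1.13). PRR1 (LOC_Os02g40510), the counterpart of TOC1 of Arabidopsis, was 22.4, 26.03 and 13.3 FPKM in WT and 44.3, 45.4 and 47.2 FPKM in ostie1-1 (log2 change 1.32 ± 0.24 with all libraries, adjusted p = 0.0167; 1.28 ± 0.23 without WT replicate 3, adjusted p = 0.00282). LUX (LOC_Os01g74020), of the evening complex, was 5.96, 8.23 and 2.15 FPKM in WT and 26.98, 18.2 and 16.8 FPKM in ostie1-1 (log2 change 2.03 ± 0.38 with all libraries, adjusted p = 0.0177; 1.77 ± 0.35 without WT replicate 3, adjusted p = 0.00471). In both, WT replicate 3 was the lowest library and the groups did not overlap. PRR1 passed in 7 of 11 fits that left out 1 library, with an adjusted p of up to 0.0919 without WT replicate 1. LUX passed in 8 of 11 fits that left out 1 library, with an adjusted p of up to 0.0713 without WT replicate 1. PRR1 did not pass with all libraries under FPKM as deposited (adjusted p = 0.0855) or TPM (adjusted p = 0.132). LUX did not pass with all libraries under TPM (adjusted p = 0.0549). PRR73 (LOC_Os03g17570) was 5.24, 5.71 and 4.52 FPKM in WT and 6.99, 11.8 and 9.12 FPKM in ostie1-1 (log2 change 0.99 ± 0.29 without WT replicate 3, adjusted p = 0.0266; 0.86 ± 0.31 with all libraries, adjusted p = 0.178). PRR73 did not pass without WT replicate 3 under FPKM as deposited (adjusted p = 0.151) or TPM (adjusted p = 0.220). The hours at which anthers were picked are not given in the sources used here.

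Among the remaining hormone and stress lists, 0 genes passed with all libraries by limma. Without WT replicate 3, 18.8% of all genes passed higher and 14.9% lower, and the counts below are to be read beside these shares. Of 7 tested abscisic acid and ethylene genes, 1 had an unadjusted p below 0.05 (median 0.13, and -0.05 with quantile normalization), and 2 passed higher and 1 lower without WT replicate 3 (median 0.76). ABA8ox2 (LOC_Os08g36860), which breaks down abscisic acid, was 297, 344 and 676 FPKM in WT and 498, 817 and 949 FPKM in ostie1-1 (log2 change 1.58 ± 0.40 without WT replicate 3, adjusted p = 0.0139; 0.98 ± 0.52 with all libraries, adjusted p = 0.328). ABA8ox2 did not pass without WT replicate 3 under TPM (adjusted p = 0.0704). NCED5† (LOC_Os12g42280), which makes its precursor, was 2.53, 2.43 and 0.904 FPKM in WT and 0.494, 0.374 and 0.507 FPKM in ostie1-1 (log2 change -1.05 ± 0.34 without WT replicate 3, adjusted p = 0.0365; -0.88 ± 0.33 with all libraries, adjusted p = 0.188). ACO1 (LOC_Os09g27750), of ethylene synthesis, was 2.84, 1.47 and 39.4 FPKM in WT and 12.9, 7.41 and 4.69 FPKM in ostie1-1. It passed higher without WT replicate 3 (log2 change 1.82 ± 0.50 without WT replicate 3, adjusted p = 0.0185; 0.36 ± 0.97 with all libraries, adjusted p = 0.860), which was above every ostie1-1 library. Of 3 WRKY genes 0 had an unadjusted p below 0.05 (median 0.66), and 2 passed higher without WT replicate 3 (median 1.52). WRKY13† (LOC_Os01g54600) was 9.67, 7.38 and 26.9 FPKM in WT and 19.5, 20.9 and 22.3 FPKM in ostie1-1 (log2 change 1.58 ± 0.35 without WT replicate 3, adjusted p = 0.00731; 0.83 ± 0.55 with all libraries, adjusted p = 0.432). WRKY53† (LOC_Os05g27730) was 0.744, 0.115 and 4.77 FPKM in WT and 2.80, 2.70 and 1.96 FPKM in ostie1-1 (log2 change 1.52 ± 0.38 without WT replicate 3, adjusted p = 0.0127; 0.66 ± 0.61 with all libraries, adjusted p = 0.575). Both were highest in WT replicate 3. The 2 tested senescence genes had a median of 0.70 (1 at an unadjusted p below 0.05), and NAP† (LOC_Os03g21060) passed higher without WT replicate 3 (median 1.29). Its log2 change was 1.25 ± 0.29 without WT replicate 3 (adjusted p = 0.00837) and 0.87 ± 0.36 with all libraries (adjusted p = 0.225). NAP did not pass without WT replicate 3 under FPKM as deposited (adjusted p = 0.0754) or TPM (adjusted p = 0.115). Of 9 tested heat shock genes 2 had an unadjusted p below 0.05 (median 0.07, and -0.06 with quantile normalization), and 2 of 8 passed higher without WT replicate 3 (median 0.73). Both were small heat shock protein genes, LOC_Os03g16040 (log2 change 3.56 ± 0.73 without WT replicate 3, adjusted p = 0.00540; 2.33 ± 0.97 with all libraries, adjusted p = 0.231) and LOC_Os01g04370 (log2 change 2.49 ± 0.45 without WT replicate 3, adjusted p = 0.00285; 1.79 ± 0.57 with all libraries, adjusted p = 0.132).

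**Figure D4:**
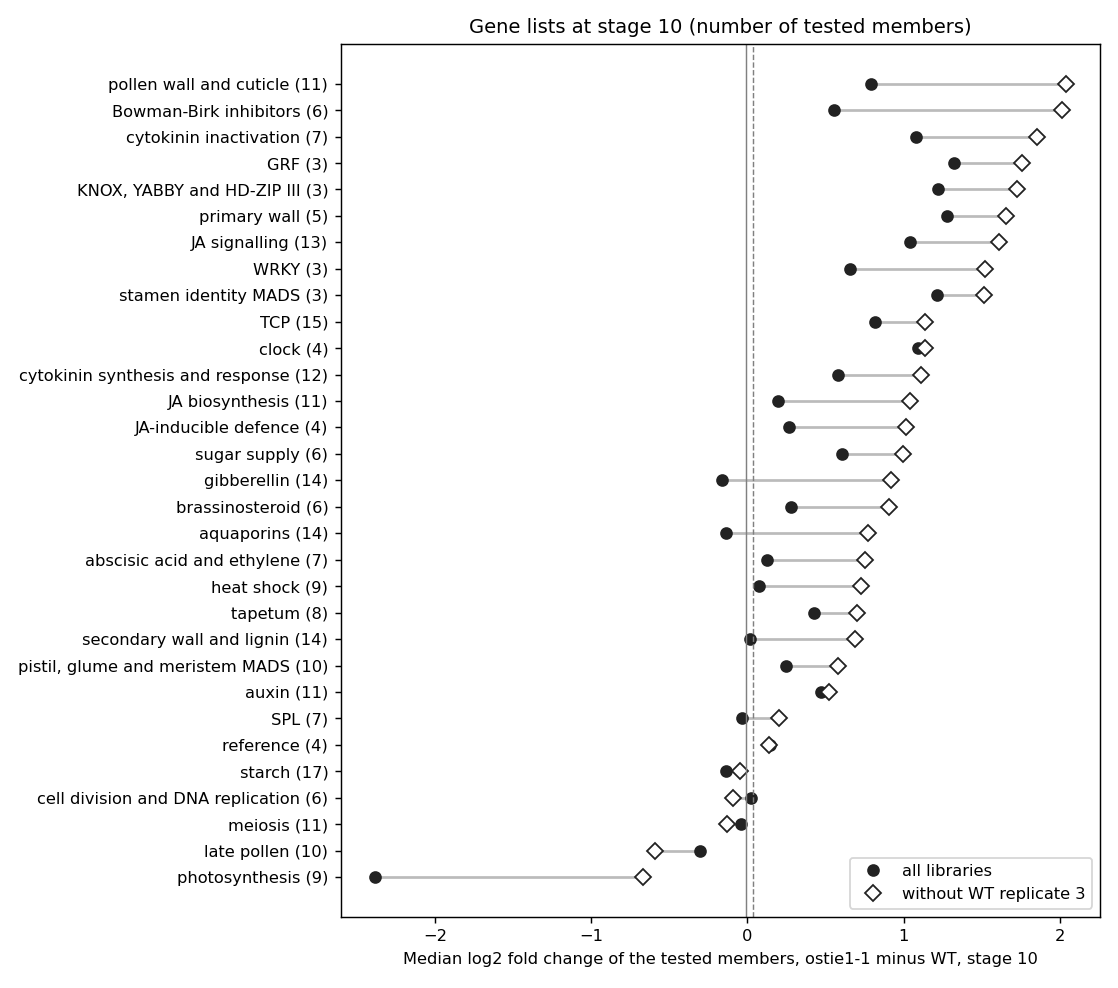
Median log2 fold change of the tested members of each list with at least 3 tested members, ostie1-1 minus WT, with all libraries (filled circles) and without WT replicate 3 (open diamonds). Numbers in brackets are members tested, and the grey lines are the medians of all genes tested, -0.01 (solid) and 0.04 (dashed). Pollen wall and cuticle lies highest without WT replicate 3, at 2.04, and photosynthesis lies lowest in both.

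Green-tissue, meiotic and dividing-cell markers were also measured. Their counts without WT replicate 3 are to be read beside the 18.8% of all genes that passed higher and the 14.9% that passed lower. Of 9 tested photosynthesis genes 0 passed with all libraries by limma (4 at an unadjusted p below 0.05, median -2.38), and CAB2R and LHCA4 passed lower and 7 did not pass without WT replicate 3 (median -0.67). CAB2R (LOC_Os01g41710), a light-harvesting protein gene, was 46.9, 40.1 and 849 FPKM in WT and 13.7, 7.58 and 8.03 FPKM in ostie1-1 (log2 change -1.71 ± 0.52 without WT replicate 3, adjusted p = 0.0286; -3.36 ± 1.09 with all libraries, adjusted p = 0.141). LHCA4† (LOC_Os08g33820) was 11, 8.21 and 211 FPKM in WT and 2.84, 1.02 and 1.08 FPKM in ostie1-1 (log2 change -1.74 ± 0.50 without WT replicate 3, adjusted p = 0.0227; -3.40 ± 1.10 with all libraries, adjusted p = 0.138). All 9 members were higher in WT replicate 3 than in WT replicates 1 and 2. The summed FPKM of the list was 2121 in WT replicate 3, against 125 and 102 in the other WT libraries and 35.5 to 91.8 in ostie1-1. The part of green tissue in the results was not tested.

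Of 11 tested meiosis genes 0 passed with all libraries by limma (1 at an unadjusted p below 0.05, median -0.04), and DMC1A passed higher, SPO11-1, HEI10 and COM1 passed lower and 7 did not pass without WT replicate 3 (median -0.13). HEI10 (LOC_Os02g13810), of crossover formation, was 9.05, 9.24 and 1.33 FPKM in WT and 1.87, 2.22 and 3.04 FPKM in ostie1-1 (log2 change -1.28 ± 0.30 without WT replicate 3, adjusted p = 0.00878; -0.74 ± 0.44 with all libraries, adjusted p = 0.383). COM1† (LOC_Os06g41050, log2 change -1.05 ± 0.29 without WT replicate 3, adjusted p = 0.0182; -0.63 ± 0.36 with all libraries, adjusted p = 0.358) and SPO11-1† (LOC_Os03g54091, log2 change -0.76 ± 0.24 without WT replicate 3, adjusted p = 0.0320; -0.38 ± 0.35 with all libraries, adjusted p = 0.562) act in meiotic break formation and repair, and WT replicate 3 was below the ostie1-1 libraries in all 3. DMC1A (LOC_Os12g04980, log2 change 1.35 ± 0.30 without WT replicate 3, adjusted p = 0.00776; 1.22 ± 0.31 with all libraries, adjusted p = 0.0673) has a near copy on chromosome 11, so its value is uncertain. Of 6 tested genes of cell division and DNA replication 0 passed with all libraries by limma (2 at an unadjusted p below 0.05, median 0.03, and -0.13 with FPKM as deposited), and CYCB2;1 (LOC_Os04g47580) passed lower without WT replicate 3 (median -0.09). CYCB2;1 was 19.6, 42.4 and 3.81 FPKM in WT and 8.69, 5.05 and 8.78 FPKM in ostie1-1 (log2 change -1.48 ± 0.39 without WT replicate 3, adjusted p = 0.0156; -0.80 ± 0.54 with all libraries, adjusted p = 0.436), lowest in WT replicate 3. Of the 4 reference genes, 2 for actin and ubiquitin and 2 for an elongation factor, 0 passed in either fit by limma and 0 had an unadjusted p below 0.05 (median 0.14 in both fits, and -0.26 without WT replicate 3 with FPKM as deposited).

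**Figure D5:**
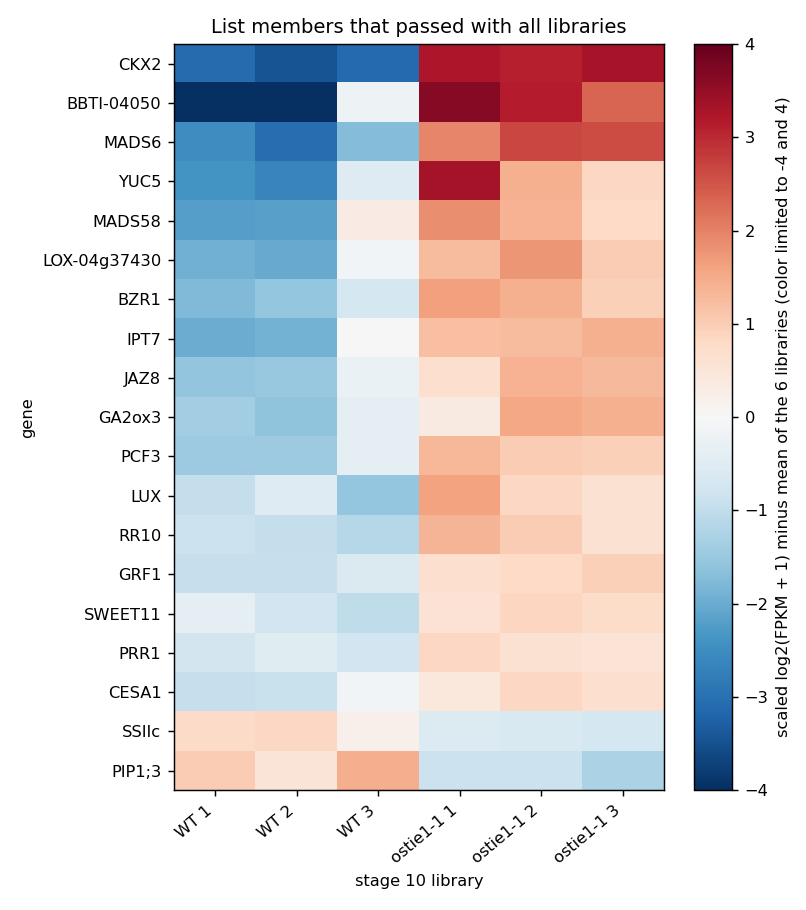
The 19 list members named by rule that passed with all libraries, as log2(FPKM + 1) after scaling, minus the mean of the 6 stage 10 libraries of the gene (color, limited at -4 and 4). Rows are genes ordered by fold change and columns are libraries. WT replicates 1 and 2 are alike in every row, and WT replicate 3 lies between the groups in IPT7, JAZ8 and PCF3 but with or below the other WT libraries in CKX2, RR10, SWEET11 and LUX.

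The stage 12 libraries are other samples of the same genotypes, but both stages were tested in the same fit with a shared estimate of the spread. A gene with a small spread can therefore pass more easily at both stages. Of the 618 genes called at stage 10 with all libraries, 585 had the same sign at stage 12 and 190 also passed there with that sign, while 0 passed with the opposite sign. At stage 12, 3.52% of the genes tested passed. How many of all genes tested had the same sign at both stages was not counted. The log2 fold change at stage 12 was 4.08 (adjusted p = 0.000332) for CKX2, 2.28 (adjusted p = 0.00983) for BZR1, 2.996 (adjusted p = 0.0371) for MADS6 and 4.79 (adjusted p = 0.0341) for the inhibitor gene LOC_Os01g04050. PCF3, at 0.22 (adjusted p = 0.802), and SWEET11, at -1.04 (adjusted p = 0.140), did not pass at stage 12. The difference between the stages itself passed in 4 genes by limma (0.0188% of those tested, with 1153 at an unadjusted p below 0.05), and in none of the named genes.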

How the data were processed

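The authors deposited 1 table of FPKM for MSU rice transcript models. HISAT2 2.2.0, featureCounts and the build IRGSP-1.0 are named in the submitters' processing notes. How counts became FPKM is not given in the sources used here. Read depth is unknown, so no counting interval was computed. FPKM sums of the stage 10 libraries were 749507 to 822961. FPKM were summed per locus, divided by a median-of-ratios factor per library and taken as log2(FPKM + 1), which understates changes of low genes. Loci at 1 FPKM or more in at least 2 libraries were tested with limma 3.58.1 (R 4.3.3, trended variance, 1 mean per group, all 4 groups), once with all 11 libraries and once without WT stage 10 replicate 3. P-values were adjusted by Benjamini-Hochberg over all genes tested, with a threshold of 0.05. The script was tested on simulated data.

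The members and the 33 gene lists (421 loci) were chosen with earlier results of these data known. From each list the rule named up to 4 members, by smallest adjusted p, that passed in either fit at a mean of at least 2 FPKM in the higher group, plus the 2 largest rises and falls. Members of a family that differ in direction may be named too. The other 14 named genes were chosen after their values were seen: GA3ox1, CPS1, GID1, SPL16, WDA1, LOC_Os06g04420, RTS, C6, PCF6, CESA8, UDT1, EAT1, MADS1 and MADS8. Marker genes, near copies and LOC_Os01g03320, mentioned beside a result, are not counted among them. Of 94 list members named by rule, 54 had a name that RefSeq lists at the place the ID gives. Alternatives were scaling, pseudocount, filters, array weights, stage 10 libraries alone, a replicate block, 1 transcript model per locus and leaving out each library.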

Additional observations from a re-analysis of the deposited data

How the results depend on the processing

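With all libraries 618 genes were called. The count stayed within 1.5 times of this with FPKM as deposited (663), TPM (640), quantile normalization (643), a pseudocount of 0.1 (529), no filter on low values (479) and 1 transcript model per locus (610). It was 275 with a mean FPKM of at least 5, 111 with stage 10 libraries only, 41 with the replicate block and 13574 with array weights, which gave WT stage 10 replicate 3 a weight of 0.0913. Leaving out 1 library gave 157 to 7118 calls, the lowest without ostie1-1 stage 10 replicate 2 and the highest without WT stage 10 replicate 3; the cause was not tested. Without WT stage 10 replicate 3, 7118 genes were called, 13409 with array weights and 5028 with the replicate block, and 2702 to 7966 when a further library was left out. The lowest of these, 2702 and 2906, came without WT stage 10 replicates 1 and 2, where the lone WT library is assumed to vary like the other groups. Whether replicate numbers pair the samples is not known. Deviations of same-numbered libraries from their group means correlated at -0.218, -0.0991 and -0.283, and no library correlated best with its own number. The WT mean includes WT stage 10 replicate 3, whose distance from the other WT libraries shapes all WT deviations, so this check could not settle the pairing. No gene named by rule reversed its sign in a called value. Of these 96 genes, 21 passed with all libraries, and the other 75 passed without WT stage 10 replicate 3 and with array weights. Of the 21, 17 lost their call with the replicate block, all but CKX2, MADS6, LOC_Os10g05750 and LOC_Os10g05980, and 17 lost it with stage 10 libraries only. Calls of the 21 lost numbered 8 with no filter on low values (LOC_Os04g37430, JAZ8, IPT7, RR10, YUC5, MADS58, SWEET11 and CESA1), 3 with a mean FPKM of at least 5 (RR10, MADS58 and CESA1), 3 with a pseudocount of 0.1 (PCF3, RR10 and GRF1), 5 with FPKM as deposited, 6 with TPM and 0 with quantile normalization. Without WT stage 10 replicate 3 all 96 passed. Of these calls, 13 were lost with the replicate block, 12 with no filter, 6 with FPKM as deposited, 11 with TPM and 3 with quantile normalization. Leaving out ostie1-1 stage 10 replicate 1, 2 or 3 as well lost 3, 15 and 9 calls. Leaving out a further WT stage 10 library leaves 1 in that group, so losses there are not given. The calls of the 75 genes thus rest on 2 WT libraries, and their leave-one-out results are not given gene by gene.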
